A study of Mus musculus with 9 samples.

Results

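The 10 genes described here encode inducible brakes on mitogen-activated protein kinase (MAPK) signalling: the phosphatase genes Dusp1, Dusp2, Dusp4, Dusp5, Dusp6 and Dusp10, the Sprouty genes Spry1 and Spry2, and the Sprouty-related genes Spred1 and Spred2. They were taken by name, with earlier results of these data known, out of 55471 gene identifiers counted in each library. All 10 were listed and passed the filter on low counts. RNA was sequenced from mouse CD8+ T cells that carry OT-I, a transgenic receptor for a peptide of ovalbumin, 7 days after the mice that received them were infected with LmOVA, Listeria that express ovalbumin. Control cells (n = 4) were Bdh1-WT with shCtrl, a hairpin against firefly luciferase, and DKO cells (n = 5) were Bdh1-KO with shOxct1, a hairpin against Oxct1, so the effects of the knockout, of the hairpin and of any difference between the donor lines cannot be told apart. In both groups naive cells were activated in culture through CD3 and CD28, grown with IL-2, transduced, sorted for the reporter Ametrine, transferred into C57BL/6 (CD45.1) mice and, after the infection, sorted again on CD45.2 and Ametrine. The organ they were taken from, the age of the mice and how Bdh1 was deleted are not stated in the labels. The labels do not say whether replicates came from separate mice, so p-values measure the spread between these libraries, which may be technical. In bulk RNA, a lower share of expressing cells and less RNA per cell cannot be told apart.

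When a T cell receptor is engaged, Ras activates the kinases Raf, MEK and ERK in turn, and ERK then switches on genes that include several of its own inhibitors. The dual-specificity phosphatases (Dusp) of this group strip the activating phosphates from MAP kinases. Dusp1, Dusp2, Dusp4 and Dusp5 act mainly in the nucleus, Dusp6 is a cytoplasmic phosphatase selective for ERK, and Dusp10 prefers the stress kinases JNK and p38. Sprouty proteins interfere with the activation of Ras and Raf, and Spred proteins bring the Ras inhibitor neurofibromin to the membrane.

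To show the sequence around the start sites, the region from 250 bases before to 50 bases after the RefSeq start is printed for the 3 genes that passed the test described further on, Dusp2, Dusp6 and Spry1, and for Dusp5 and Dusp1, which hold the motifs linked in textbooks to ERK and cAMP responses. Sequences are from RefSeq (GRCm38.p6), 5′ to 3′ on the gene's strand, and 9 of the 10 genes had an entry. Capitals mark matches, on either strand, to the cAMP response element (CRE) TGACGTCA, its core TGACG, the AP-1 motif TGANTCA, the CArG box bound by serum response factor, the ETS motif GGAAGT and the E-box CACGTG. A core inside a full CRE was also counted as a core.
Dusp2 (chr2:127335909-127336208, plus strand): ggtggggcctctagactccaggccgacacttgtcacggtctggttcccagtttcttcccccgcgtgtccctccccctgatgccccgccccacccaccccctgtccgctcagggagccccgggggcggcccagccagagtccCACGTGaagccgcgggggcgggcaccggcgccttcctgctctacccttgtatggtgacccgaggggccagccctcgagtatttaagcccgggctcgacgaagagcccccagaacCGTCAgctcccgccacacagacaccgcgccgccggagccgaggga
Dusp6 (chr10:99262981-99263280, plus strand): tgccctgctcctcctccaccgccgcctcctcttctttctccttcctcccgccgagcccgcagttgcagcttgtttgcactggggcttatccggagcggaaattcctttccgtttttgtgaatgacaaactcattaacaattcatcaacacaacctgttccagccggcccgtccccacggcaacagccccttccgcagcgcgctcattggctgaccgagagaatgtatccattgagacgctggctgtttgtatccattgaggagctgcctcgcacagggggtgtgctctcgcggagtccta
Spry1 (chr3:37639697-37639996, plus strand): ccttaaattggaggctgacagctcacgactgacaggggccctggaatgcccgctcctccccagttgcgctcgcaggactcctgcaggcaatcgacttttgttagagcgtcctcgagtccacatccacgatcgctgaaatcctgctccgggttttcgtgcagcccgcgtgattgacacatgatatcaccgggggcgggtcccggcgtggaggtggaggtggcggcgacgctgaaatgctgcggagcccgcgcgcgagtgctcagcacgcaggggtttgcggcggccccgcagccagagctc
Dusp5 (chr19:53528895-53529194, plus strand): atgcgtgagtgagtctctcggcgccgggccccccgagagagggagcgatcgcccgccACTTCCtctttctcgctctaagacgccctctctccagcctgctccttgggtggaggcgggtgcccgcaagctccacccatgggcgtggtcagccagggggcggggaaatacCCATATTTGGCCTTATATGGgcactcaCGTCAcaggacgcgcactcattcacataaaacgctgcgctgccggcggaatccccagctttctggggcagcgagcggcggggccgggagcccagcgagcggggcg
Dusp1 (chr17:26508423-26508722, minus strand): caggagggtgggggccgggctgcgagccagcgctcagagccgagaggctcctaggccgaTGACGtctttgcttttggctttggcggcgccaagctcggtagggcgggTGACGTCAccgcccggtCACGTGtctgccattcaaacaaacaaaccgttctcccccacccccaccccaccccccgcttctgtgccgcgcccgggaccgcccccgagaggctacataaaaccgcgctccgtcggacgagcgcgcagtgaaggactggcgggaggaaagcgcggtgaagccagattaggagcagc

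Dusp5 held a pair of adjoining CArG boxes, with first bases 82 and 72 bases before the start, and 1.63% of all 32851 promoters in the table held at least 1. Dusp1 held the full CRE, found in 1.79% of all promoters, 143 bases before the start. CRE cores were found in Dusp1, Dusp2, Dusp5 and Spred2 (4 of 9, against 20.8% of all promoters), ETS motifs in Dusp5 and Spred2 (23.8% of all promoters) and E-boxes in Dusp1 and Dusp2 (7.15%). No AP-1 match, present in 7.81% of all promoters, was found in any of the 9. Dusp6, Spry1, Spry2, Spred1 and Dusp10 had none of the 6 motifs in this window, so the 3 genes past the test shared no match. A match describes letters only and is not a measured binding site. In GENCODE M21 the Dusp1 gene starts 53656 bases upstream of the RefSeq start and the Dusp10 gene 21079 bases upstream, while the starts of Dusp2, Dusp6, Spry1 and Spry2 coincide.

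**Figure D1:**
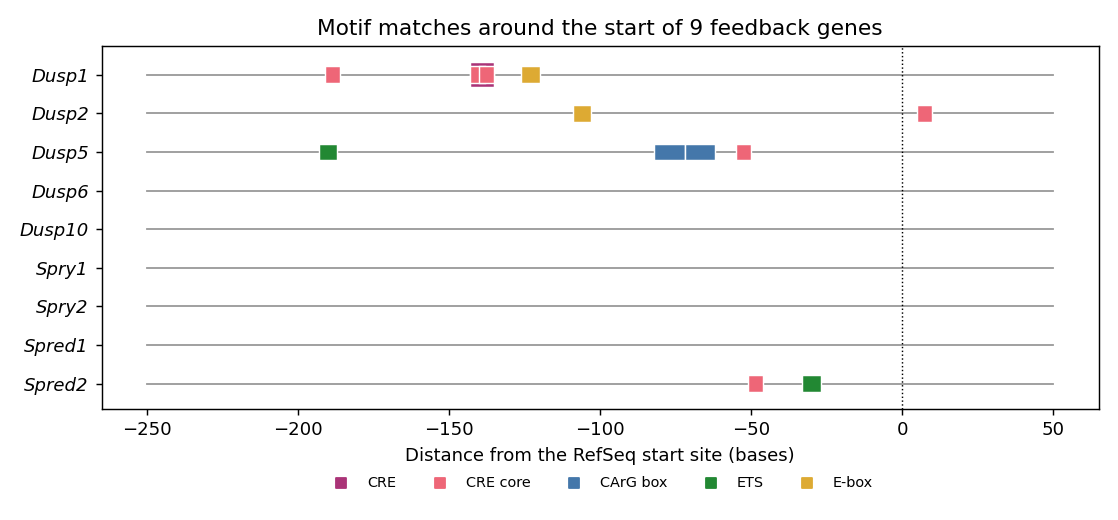
Positions of motif matches (coloured boxes) from 250 bases before to 50 bases after the RefSeq start site of the 9 feedback genes with a promoter entry, with distance from the start in bases on the x axis. Matches lie in Dusp1, Dusp2, Dusp5 and Spred2, and the adjoining CArG boxes are those of Dusp5.

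Libraries held 45205993 to 59853080 counts in genes. Oxct1, the hairpin target, was at 63.2 ± 5.73 CPM (CPM gives counts relative to the library size, here scaled with TMM) in Control libraries, and in DKO libraries at 5.16 ± 0.370 CPM (SD, n = 4 and 5), and Bdh1 at 30.5 ± 4.17 and 10.6 ± 1.24 CPM. Control replicate 1 lay apart on the first principal component (-79.1, others -7.3 to 23.5) and Control replicate 3 on the second (-70.2, others -5.6 to 20.2). Control replicate 1 also had the lowest share of reads in genes (67.0%, others 71.8 to 74.0%). The 7 CD8 T cell markers summed to 6857 to 9384 CPM in Control and 6265 to 6821 CPM in DKO. All 7 were fitted below 0, with a median log2 fold change of -0.22, where 48.6% of all genes were fitted above 0. At an unadjusted edgeR p under 0.05 were 4 of the 7, against 16.0% of all genes. In 2, Cd3e and Cd8b1, every DKO library was below every Control library, against 4.09% of all genes. Of these 7, 1 passed the test described below, Cd8b1, against 2.83% of all genes. Cd8b1 fell by 0.40 on the log2 scale (edgeR adjusted p 0.0428, and 0.0520 to 0.127 without any 1 library other than Control replicate 1). Of the 12 myeloid markers, 9 were tested, 7 fitted below 0 and 2 above, with a median log2 fold change of -0.42. Past the threshold 2 of the 9 fell, where 2.83% of all genes passed in either direction. These were Ctss (81.2 ± 8.22 to 51.3 ± 5.83 CPM) and Cd68 (29.2 ± 4.98 to 16.8 ± 2.51 CPM). The list summed to 162.4 to 197.7 CPM in Control and 113.8 to 123.5 CPM in DKO, nearly all of it Ctss, Itgam and Cd68. Among the myeloid genes not past the threshold, named after their values were seen, Itgam averaged 58.9 CPM in Control and 38.1 CPM in DKO (edgeR adjusted p 0.148). Adgre1 was at 1.04 and 1.01 CPM (0.986), and Lyz2 was higher in DKO, at 2.43 and 5.85 CPM (0.206). The B cell list summed to 186.9 to 270.7 CPM in Control and 194.9 to 215.5 CPM in DKO, nearly all of it Ighm (means 208.7 and 188.3 CPM), with Cd79b at 5.08 and 6.04 CPM and Pax5 at 0. The CD4 T cell list summed to 44.5 to 50.2 CPM in Control and 51.2 to 64.3 CPM in DKO. Nearly all of it was Cd40lg (means 20.4 and 29.4 CPM), Zbtb7b (14.6 and 11.8 CPM) and Ctla4 (12.75 and 16.7 CPM). Cd4 itself averaged 0.172 and 0.344 CPM, and Foxp3 0.137 and 0.212 CPM. For the erythroid and platelet list the sums were 10.8 to 37.7 and 16.1 to 54.1 CPM. The part of these cells in the results below was not tested.

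Of the 10 feedback genes, 3 were higher in DKO past an adjusted p of 0.05: Dusp6 (2.31-fold), Spry1 (2.09-fold) and Dusp2 (1.39-fold). The background was 1.32% of 14918 genes higher past the threshold, and 2.83% in either direction (edgeR's quasi-likelihood test, Benjamini-Hochberg adjustment over all genes). None of the 10 was lower past it. The 10 genes were chosen with earlier results of these data known, so the shares of all genes give scale and do not test the group. At an unadjusted p under 0.05 were 7 of the 10, against 16.0% of all genes. In 5 genes (Dusp2, Dusp4, Dusp5, Dusp6 and Spry1) every DKO library was above every Control library, against 4.62% of all genes, and in 1 gene, Spry2, every DKO library was below, against 4.09%. The fitted change was above 0 for 9 of the 10 and for 48.6% of all genes, with a median log2 fold change of 0.40 against -0.01 over all genes. Dusp10, counted among these 9, had a fitted log2 change that rounds to 0.00. DESeq2 and limma-voom each called 6 of the 10, adding Dusp4, Dusp5 and Spry2, where they called 6.96% and 6.68% of all genes. Without DKO replicate 1 the count was 1, Dusp6 alone.

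**Figure D2:**
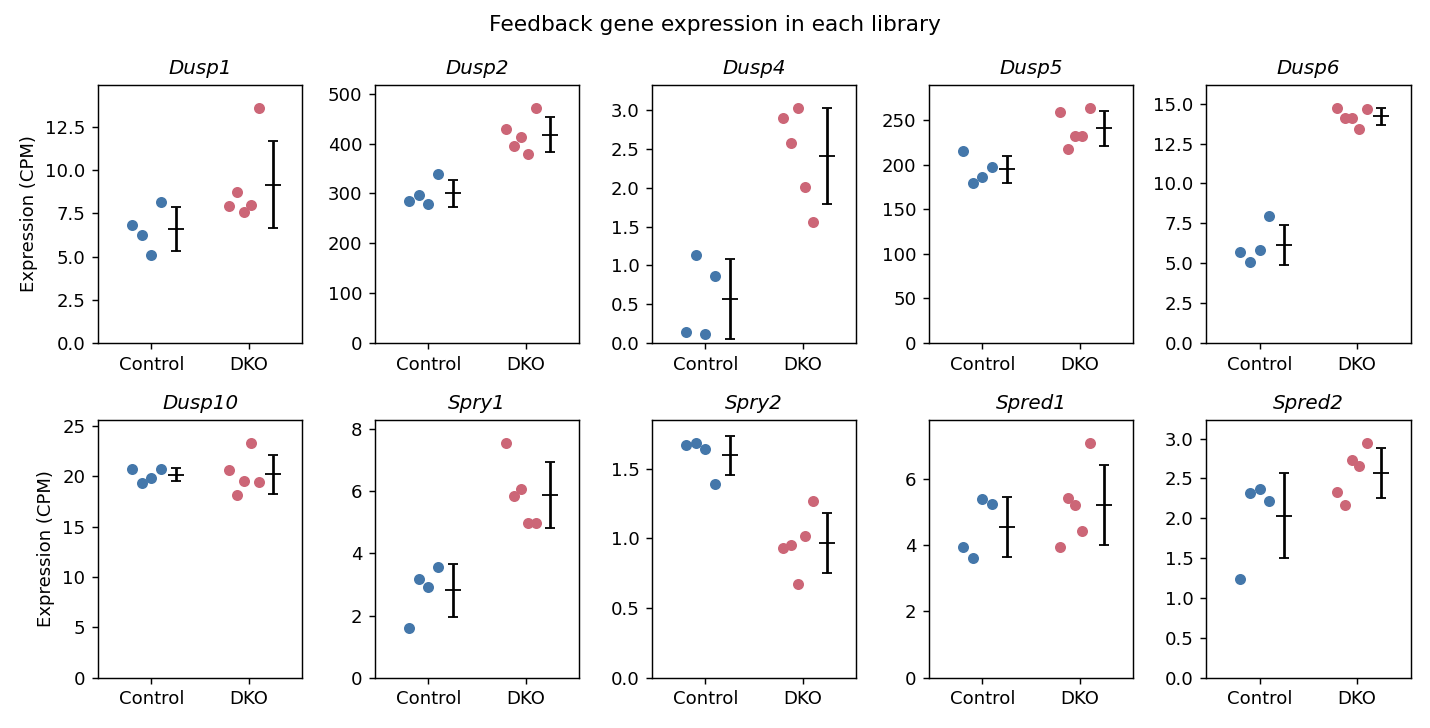
Expression in CPM (y axis, from 0) of each of the 10 genes, with 1 point per library, Control in blue and DKO in red, and the mean with SD in black. Groups do not overlap for Dusp2, Dusp4, Dusp5, Dusp6, Spry1 and Spry2, and Spry2 is the gene with DKO below Control.

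Dusp6, the cytoplasmic phosphatase for ERK, lies on chromosome 10 (99263231 to 99267489, plus strand, GRCm38; ENSMUSG00000019960.8). Control libraries were at 5.72, 5.05, 5.82 and 7.97 CPM, and DKO libraries at 14.7, 14.1, 14.1, 13.4 and 14.7 CPM. The lowest DKO library was well above the highest Control library, replicate 4. Dusp6 rose by 1.21 on the log2 scale, with an SE of 0.14 and an edgeR adjusted p of 0.00180. It kept the threshold without each library in turn (adjusted p 8.38e-04 to 0.00934) and under all 16 alternatives other than the replicate block (log2 fold change 1.11 to 1.36). The DKO libraries differed little, with a coefficient of variation of 3.77% where counting error alone gives 3.71%, against 20.7% and 5.59% in Control.

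Dusp2, also called PAC1, is a nuclear phosphatase first described in activated lymphocytes (chromosome 2, 127336159 to 127338376, plus strand; ENSMUSG00000027368.6). Its CPM was 285.8, 297.4, 277.9 and 339.8 in Control and 430.0, 394.3, 413.7, 380.1 and 470.8 in DKO. Control replicate 4 was again the highest Control library, and the groups did not overlap. Dusp2 rose by 0.48 on the log2 scale, with an SE of 0.09 and an edgeR adjusted p of 0.0171. It lost the threshold without DKO replicate 1 (adjusted p 0.0530), and without any other single library the adjusted p was 0.0137 to 0.0497.

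Among the other nuclear phosphatases, Dusp4 had the largest fitted change of the 10 genes and the fewest reads in Control (chromosome 8, 34807297 to 34819894, plus strand; ENSMUSG00000031530.6). It was at 0.144, 1.14, 0.111 and 0.862 CPM in Control (7, 65, 5 and 49 counts) and at 2.91, 2.57, 3.03, 2.01 and 1.57 CPM in DKO (147, 152, 144, 103 and 74 counts). Control libraries fell into a low pair, replicates 1 and 3, which are also the libraries that lay apart, and a higher pair, both below the lowest DKO library. The fitted log2 change was 2.07 with an SE of 0.56, short of the threshold (edgeR adjusted p 0.0835), and 1.26 (adjusted p 0.0566) with Control replicates 1 and 3 both left out. Without Control replicate 2 it was 2.65 (adjusted p 0.0493), past the threshold.

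Dusp5, a nuclear phosphatase selective for ERK (chromosome 19, 53529109 to 53542431, plus strand; ENSMUSG00000034765.6), was at 215.3, 179.7, 186.1 and 196.9 CPM in Control. In DKO it was at 259.3, 217.8, 231.7, 231.9 and 263.0 CPM, so the lowest DKO library lay just above the highest Control library, replicate 1. The fitted log2 change was 0.31 with an SE of 0.09 (edgeR adjusted p 0.0905), and it passed the threshold without Control replicate 1 (adjusted p 0.0200). An antisense gene, AC137853.2, overlaps its start, and counting each strand alone and adding gave 1.30 times the count used, so part of its reads was left out (strands added: log2 change 0.34, adjusted p 0.0517).

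Dusp1, an early response gene whose product acts on p38, JNK and ERK (chromosome 17, 26505590 to 26562128, minus strand; ENSMUSG00000024190.7), was at 6.85, 6.26, 5.09 and 8.16 CPM in Control. In DKO it was at 7.95, 8.74, 7.59, 8.01 and 13.6 CPM, and replicate 5 stood above the rest. The groups overlapped, and the fitted log2 change was 0.48 with an SE of 0.20 (edgeR adjusted p 0.276). Without DKO replicate 5 the log2 change was 0.29. Dusp10, the phosphatase for JNK and p38 (chromosome 1, 184013302 to 184075636, plus strand; ENSMUSG00000039384.8), ranged from 19.4 to 20.7 CPM in Control and from 18.2 to 23.3 CPM in DKO. Its fitted log2 change was 0.00 with an SE of 0.10 (edgeR adjusted p 0.986).

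Of the Sprouty genes, Spry1 (chromosome 3, 37639947 to 37644598, plus strand; ENSMUSG00000037211.12) was at 1.61, 3.17, 2.92 and 3.57 CPM in Control and at 7.55, 5.86, 6.07, 4.97 and 4.99 CPM in DKO. Every DKO library was above every Control library, and Control replicate 1 was the lowest. Spry1 rose by 1.06 on the log2 scale, with an SE of 0.23 and an edgeR adjusted p of 0.0353. It lost the threshold without any 1 library other than Control replicate 1 (adjusted p 0.0528 to 0.0950), with log2 changes of 0.96 to 1.20, and without Control replicates 1 and 3 together (0.79, adjusted p 0.0663).

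Spry2 (chromosome 14, 105891947 to 105896819, minus strand; ENSMUSG00000022114.5) was at 1.67, 1.68, 1.64 and 1.39 CPM in Control and at 0.929, 0.949, 0.673, 1.01 and 1.27 CPM in DKO. All DKO libraries were below all Control libraries, with 32 to 60 counts against 74 to 96. The fitted log2 change was -0.72 with an SE of 0.22 (edgeR adjusted p 0.125), which did not pass. Counting each strand alone and adding gave 2.03 times the count used, so its level is uncertain, and GENCODE M21 places no other gene there. With the strands added, and without TMM scaling, Control libraries were at 2.23 to 3.69 CPM and DKO libraries at 1.58 to 2.15 CPM. The fit to the added strands, which did use TMM, gave a log2 change of -0.52 (edgeR adjusted p 0.181). Per kilobase of exon, the ratio of Spry1 to Spry2 was 0.692 to 1.84 in Control libraries and 2.82 to 6.49 in DKO libraries from the unstranded count, and 0.310 to 1.16 and 1.68 to 2.75 with the strands added.

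The Spred genes did not pass the test. Spred1 (chromosome 2, 117121374 to 117182279, plus strand; ENSMUSG00000027351.14) ranged from 3.63 to 5.40 CPM in Control and from 3.93 to 7.09 CPM in DKO, with a fitted log2 change of 0.20 (SE 0.20, edgeR adjusted p 0.684). Spred2 (chromosome 11, 19924375 to 20024026, plus strand; ENSMUSG00000045671.17) ranged from 1.24 to 2.37 CPM in Control and from 2.17 to 2.94 CPM in DKO, with a fitted log2 change of 0.33 (SE 0.22, edgeR adjusted p 0.501). Control replicate 1 held the lowest Spred2 value, and without it the log2 change was 0.14.

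**Figure D3:**
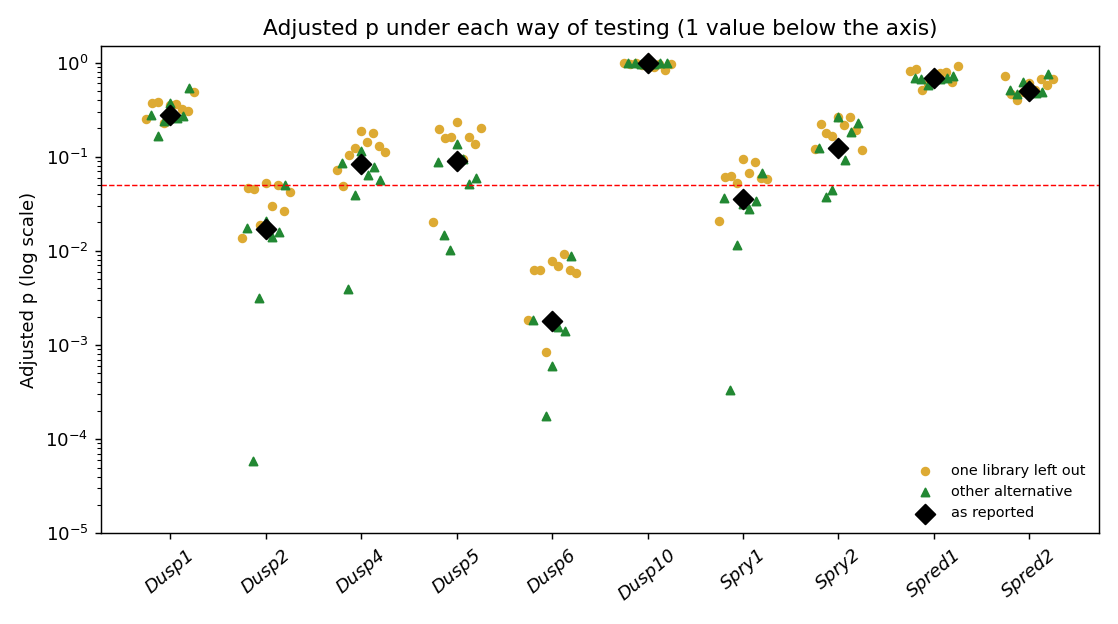
Adjusted p (log scale) of each gene as reported (black), with 1 library left out (yellow) and under the other alternatives (green), with the threshold of 0.05 dashed and 1 value below the axis. Dusp6 stays below the line in every fit shown, Dusp2 in all but 1, and Spry1 crosses it when most single libraries are left out. The fit with the replicate block is not drawn. Its edgeR adjusted p was 0.0401 for Dusp6, 0.176 for Dusp2 and 0.172 for Spry1.

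Levels were compared between genes as CPM per kilobase of annotated exon. In Control, Dusp2 was the highest (149.9 ± 13.8, SD, n = 4), followed by Dusp5 (78.7 ± 6.31) and Dusp10 (6.62 ± 0.214), each apart from the next. Dusp1 (1.99 ± 0.386) and Dusp6 (1.96 ± 0.405) overlapped each other, as did Spry1 (0.970 ± 0.292) and Spry2 (0.764 ± 0.0663), Spry2 and Spred1 (0.672 ± 0.133), and Spred2 (0.440 ± 0.116) and Dusp4 (0.206 ± 0.189). In DKO, Dusp2 (208.6 ± 17.6, n = 5), Dusp5 (97.4 ± 7.90) and Dusp10 (6.64 ± 0.632) kept the first 3 places, and Dusp6 (4.54 ± 0.171) was apart from Dusp1 (2.77 ± 0.756) below it. Spry1 (2.03 ± 0.363) overlapped Dusp1. Below it, Dusp4 (0.882 ± 0.226), Spred1 (0.770 ± 0.178), Spred2 (0.555 ± 0.0675) and Spry2 (0.463 ± 0.102) overlapped in turn at the bottom. The place of Spry2 turned on the count used. With the strands added, and without TMM scaling, Spry2 was at 1.34 ± 0.303 in Control, above Spry1 (0.956 ± 0.298) with overlapping ranges. In DKO it was at 0.929 ± 0.103, above Dusp4 (0.805 ± 0.206) and Spred1 (0.703 ± 0.160), again with overlapping ranges. Spred2 (0.507 ± 0.0626) was apart below it. The ratio of Dusp6 to Dusp2 per kilobase was 0.0109 to 0.0150 in Control libraries and 0.0199 to 0.0229 in DKO libraries.

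**Figure D4:**
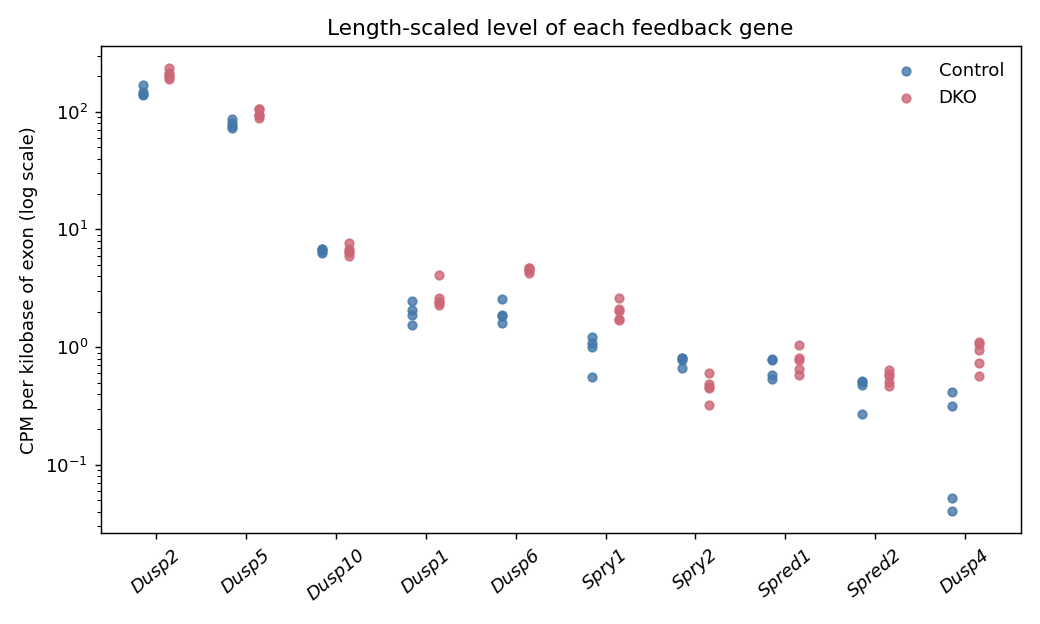
CPM per kilobase of exon (log scale) in each library, genes ordered by their Control mean, Control in blue and DKO in red. Dusp2 and Dusp5 stand far above the other 8 genes in both groups, and Dusp4 moves from the lowest Control mean, 0.206, to 0.882 in DKO.

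Genes whose values over the 9 libraries were closest to those of a member past the threshold were found by the root mean square difference of mean-centred log2 CPM. For Dusp6 these were Fmnl3 (0.163), Tnf (0.197) and Hic1 (0.208), for Dusp2 they were Mdm1 (0.0576), Cdt1 (0.0641) and Ficd (0.0733), and for Spry1 Pdxk (0.190), Kdm5c (0.207) and Klhl18 (0.213).

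The rest of the pathway was read from the same fit. Over all genes, 16.0% had an unadjusted edgeR p under 0.05 and 48.6% were fitted above 0. Of 10 other Dusp, Sprouty and Spred genes, 6 were tested, of which edgeR called 0, DESeq2 0 and limma-voom 1, and 2 had an unadjusted edgeR p under 0.05. Dusp7, a cytoplasmic phosphatase related to Dusp6, had the smallest p among them, with a Control mean of 141.6 ± 23.0 CPM, a DKO mean of 185.0 ± 21.0 CPM and an edgeR adjusted p of 0.137. Of 21 genes of the Ras-ERK cascade, such as Lat, Rasgrp1 and Rps6ka1, edgeR called 0, DESeq2 0 and limma-voom 1, and 4 had an unadjusted edgeR p under 0.05, with 17 fitted above 0 and a median log2 fold change of 0.11. Grb2, the adaptor that carries the Ras activator Sos, had the smallest p among them, at 249.1 ± 16.3 and 283.7 ± 7.89 CPM (0.19, adjusted p 0.207, edgeR).

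Of 20 tested ERK response genes, most of them early genes transcribed after ERK activation and 1, Elk1, a transcription factor that ERK phosphorylates, 3 passed, all higher in DKO, where 1.32% of all genes did. At an unadjusted p under 0.05 were 7 of the 20, against 16.0% of all genes. In 5 every DKO library was above every Control library, where 4.62% of all genes were. The median log2 change of the 20 was 0.24, with 15 above 0 (48.6% of all genes were) and 5 below. This list too was chosen with earlier results of these data known, so the shares of all genes do not test it. Egr1, an early transcription factor, averaged 6.62 ± 2.89 CPM in Control and rose by 1.59 on the log2 scale to 20.01 ± 4.34 CPM (SE 0.28, edgeR adjusted p 0.0143). Etv5, an ETS factor, rose from 1.40 ± 0.461 to 3.46 ± 0.759 CPM (1.30, SE 0.26, adjusted p 0.0256), and Btg2, an antiproliferative gene, from 525.7 ± 66.6 to 709.8 ± 35.5 CPM (0.43, SE 0.09, adjusted p 0.0312). In these 3 genes no DKO library overlapped Control. Egr1 was past it in all 9 fits that left out 1 library. Etv5 lost it without Control replicates 1 and 3 together (0.0750), and without Control replicate 3 or DKO replicates 1, 2, 3 or 5 (adjusted p 0.0509 to 0.0643), and Btg2 without Control replicate 4 or any 1 DKO library (0.0507 to 0.0896). Fos, Jun and Junb, named after their values were seen, had fitted log2 changes of 0.13, -0.27 and 0.02 (adjusted p 0.952, 0.794 and 0.958, edgeR).

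Of 11 tested genes of the JNK and p38 kinases and their activators, 1 passed, against 2.83% of all genes. DESeq2 called 1 and limma-voom 3. Above 0 were 7 of the 11 (48.6% of all genes were), and 4 were below. At an unadjusted edgeR p under 0.05 were 3, against 16.0% of all genes. In 2, Map2k3 and Mapk14, every DKO library was above every Control library, against 4.62% of all genes. In 1, Mapk11, every DKO library was below, against 4.09%. Mapk11, which encodes p38 beta, fell from 10.1 ± 1.70 to 6.12 ± 0.726 CPM, by 0.73 on the log2 scale (SE 0.15, edgeR adjusted p 0.0278), and the groups did not overlap. It lost the threshold in 7 of the 9 fits that left out 1 library (adjusted p 0.0523 to 0.0809), all but those without Control 1 and DKO 2. Of 15 other inhibitors of receptor and Ras signalling, such as Cblb and Dgkz, edgeR called 0, DESeq2 0 and limma-voom 1. Among these 15, 2 had an unadjusted edgeR p under 0.05, against 16.0% of all genes. Socs3 had the smallest p (13.3 ± 2.16 and 16.6 ± 1.45 CPM, edgeR adjusted p 0.234). Of 9 heat shock genes, which respond to handling, 1 passed, Dnaja1, against 2.83% of all genes. Dnaja1 fell by 0.68 on the log2 scale (adjusted p 0.0407, edgeR). It lost the threshold in 6 of the 9 fits that left out 1 library, all but those without Control 1, Control 4 and DKO 2 (0.0610 to 0.107). Of the 9, 6 were fitted above 0, against 48.6% of all genes, with a median log2 change of 0.31. At an unadjusted edgeR p under 0.05 were 3 of the 9, against 16.0% of all genes. Dnajb1 and Hspa1a, named after their values were seen, averaged 208.9 and 0.402 CPM in Control and 275.2 and 1.08 CPM in DKO, with log2 changes of 0.40 and 1.42 (edgeR adjusted p 0.102 and 0.264), and every DKO library was above Control for Dnajb1. The heat shock list summed to 1388 to 2145 CPM in Control and 1568 to 2467 CPM in DKO, and its part in the results was not tested.

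**Figure D5:**
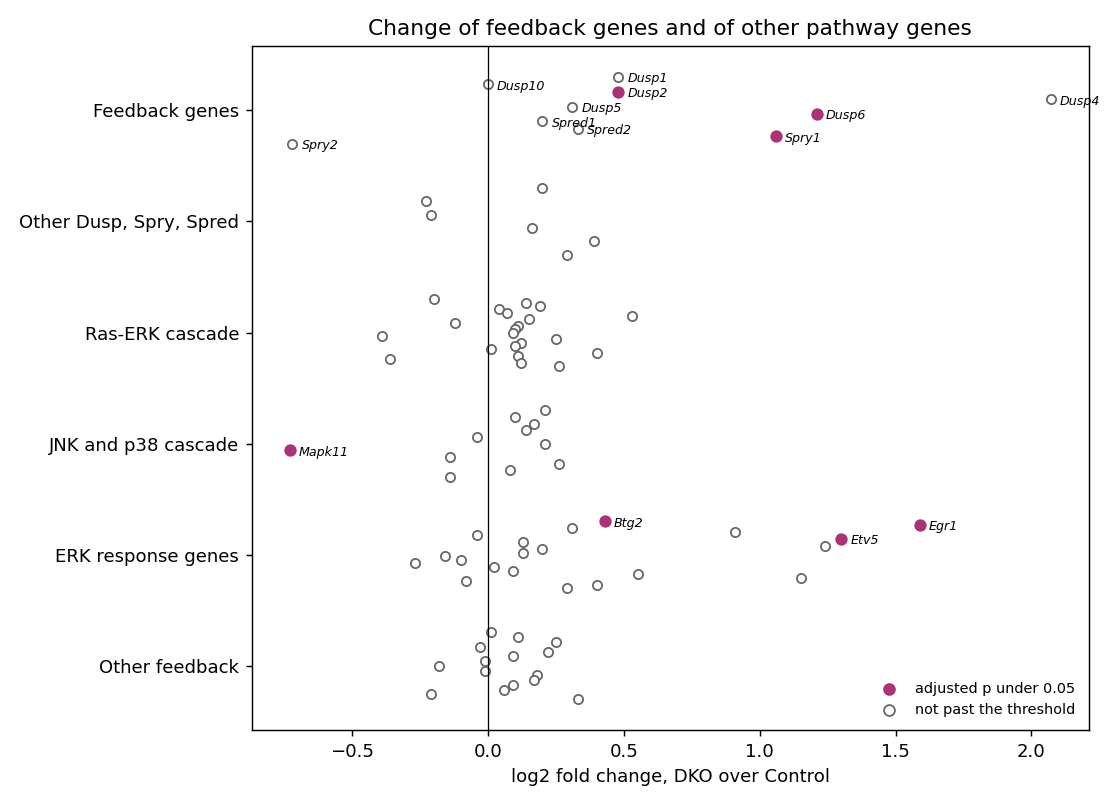
log2 fold change of DKO over Control (x axis) for each tested gene of 6 lists (rows), filled where the adjusted p is under 0.05. Dusp6, Spry1 and Dusp2 are the filled feedback genes, the Ras-ERK cascade has none, and Egr1, Etv5 and Btg2 are filled among the ERK response genes.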

How the data were processed

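RNA was measured in 9 libraries, 4 Control and 5 DKO, as polyA RNA amplified with Takara Smartseq v4, per the labels' protocols. The files deposited by the authors hold raw read counts for each gene, unstranded and for each strand, as STAR writes them. The submitters' processing notes name STAR 2.7.8a, Trim Galore 0.6.0 and the build mm10, and the sources used here do not give the annotation or read filters. The unstranded column was used, which leaves out reads where opposite-strand genes overlap. Rows without a gene were dropped (unmapped reads 16.7% in Control replicate 1 and 10.3 to 12.3% in the others, multimapping 5.80 to 6.79%, in no feature 4.01 to 5.20%, ambiguous 4.97 to 5.31%). Of 55471 identifiers, 55230 matched GENCODE M21 (GRCm38) without the version, which gave symbols, coordinates and exon lengths.

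Counts were tested with edgeR 4.0.16 (R 4.3.3; quasi-likelihood, robust, TMM, filterByExpr with a minimum count of 10 and total of 15), DKO against Control over all 9 libraries, with p-values adjusted over 14918 genes at 0.05. Levels are CPM from these counts, and likeness used log2 CPM with a prior count of 2. Alternatives were DESeq2 size factors, DESeq2 1.42.0, limma-voom (limma 3.58.1), no filter, 1 CPM in 4 libraries, summed strand columns, a replicate block and leaving out each library, and leaving out Control replicates 1 and 3 together was added after seeing the data. After the fits, edgeR, DESeq2 and limma-voom were run on counts simulated with means and dispersions from the main fit. The share of false calls there was above the threshold for each and highest for DESeq2.

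The members and lists were chosen with earlier results of these data known. Named genes were the 10 members, Oxct1 and Bdh1, each list gene past the threshold or, in a list with none, the gene of smallest p, and the 3 genes most like each member past the threshold. Of the marker lists with none past it, the genes of smallest p were Ctla4 (adjusted p 0.0799), Cd22 (0.426) and Itga2b (0.490, edgeR).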

Additional observations from a re-analysis of the deposited data

Results flagged for a closer look

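In 5 of the 52 groups of libraries examined, 1 library stood apart from the others of its group by Dixon's criterion, the gap to its nearest neighbour as a share of the range, and chance gives about 1 in 20. Dusp1 was at 13.6 CPM in DKO replicate 5, where the others were at 7.59 to 8.74 CPM. Spry2 was at 1.39 CPM in Control replicate 4, where the others were at 1.64 to 1.68 CPM. Spred2 was at 1.24 CPM in Control replicate 1, where the others were at 2.22 to 2.37 CPM. Socs3 was at 16.5 CPM in Control replicate 4, where the others were at 11.9 to 12.4 CPM. Ctss was at 93.5 CPM in Control replicate 1, where the others were at 76.3 to 77.5 CPM.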

How the results depend on the processing

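The count of feedback genes past the threshold, 3 as reported, was 6 with DESeq2 and with limma-voom, 1 to 4 with single libraries left out (1 without DKO replicate 1), and 2 with Control replicates 1 and 3 both left out. Over all genes the count, 422 as reported, was 1038 with DESeq2, 996 with limma-voom, and 179 to 749 with single libraries left out, over 1.5 times higher without Control replicate 1 and over 1.5 times lower without Control replicate 4 or any DKO replicate. Dusp10, with a change of 0.00, changed sign under 6 alternatives: -0.01 at 1 CPM in 4 libraries, -0.00 with Control replicates 1 and 3 both left out, and -0.05 to 0.04 without single libraries (below 0 in 4 of these 9 fits). The cause was not tested. Of 442 values for single genes under an alternative, 372 kept their direction and side of the threshold, 53 lost the threshold, 11 gained it and 6 changed sign. With the replicate number as a block (replicates 1 to 4 of both groups), 1 feedback gene, Dusp6, and 63 of all genes passed. Same-numbered libraries did not deviate together (correlations -0.117 to 0.012, and 0 of 4 Control libraries correlated best with their own number), so the numbers were not taken as pairs. Counts were low for Dusp4 in Control (5 to 65 a library, counting error 17.8% against a spread of 91.6%) and for Spry2 in Control, where counting error (11%) covered the observed spread (8.68%).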
